A study of Mus musculus with 2 samples.

Results

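Prehypertrophic and hypertrophic chondrocytes are the cells at the lower end of the growth plate, where chondrocytes stop dividing, enlarge and lay down type X collagen. In single-cell RNA-seq data of mouse femurs, 159 of 10638 deposited cells were selected as such cells, 56 in the library of untreated mice and 103 in the library of calcitriol-injected mice. Unique molecular identifiers (UMIs) count the mRNA molecules captured from a cell, and the selection was made on the UMIs of the cells themselves. A cell needed 200 detected genes, 5 UMIs of *Col2a1* (type II collagen) and either *Col10a1* (type X collagen) at 0.1% or more of its UMIs or 3 UMIs of *Ihh* (Indian hedgehog). Cells with *Prg4* (lubricin) at 0.5% or more, with *Bglap* (osteocalcin) at 0.5% or more, or with haemoglobin genes at 10% or more of their UMIs were left out. The levels of *Col10a1* and *Ihh* are therefore a description of the choice and not a result, and that of *Col2a1* is so in part.

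Both groups were male C57BL/6J mice aged 7 weeks. The treated mice received calcitriol (1,25-dihydroxyvitamin D3, the active hormone) by intravenous injection of 2.5 μg/kg on 3 days, and their femurs were taken 24 h after the last dose, while the control mice were untreated, and no vehicle group is described. In both groups the bone ends were cut off, the marrow was flushed out, the bone was digested, and CD45-positive blood cells were depleted. The cells of 6 mice were pooled into 1 library per group, so no difference between the groups has a replicate check, no p-value can be given, and the intervals below cover counting error only. The selected cells held 1778384 UMIs in the untreated and 3146923 UMIs in the calcitriol library, with a median of 33061 and 27395 UMIs and of 4509 and 3921 genes per cell. No selected cell shared its barcode with a cell of the other library, although 8 barcodes occurred in both libraries.

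In the growth plate, proliferating chondrocytes leave the cell cycle and become prehypertrophic under the control of a loop between Indian hedgehog, made by the prehypertrophic cells, and parathyroid hormone-related protein, which acts through the receptor encoded by *Pth1r* and delays hypertrophy. RUNX and MEF2 transcription factors then drive *Col10a1*, and the last hypertrophic cells make collagenase 3 (*Mmp13*), osteopontin (*Spp1*) and bone sialoprotein (*Ibsp*), calcify their matrix and attract vessels through *Vegfa*. Calcitriol acts through the nuclear receptor encoded by *Vdr*, and rickets with an elongated hypertrophic zone is the known result of its lack.

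The promoters of the genes at both ends of this program are shown because *Col10a1* was read in 56 of 56 untreated and 98 of 103 calcitriol cells and *Mmp13* in 14 and 26 of them. *Col10a1* lies on the plus strand of chr10:34389981-34397085 and *Mmp13* on the plus strand of chr9:7272514-7283331 (GRCm38, GENCODE). The 150 bases before each RefSeq start (GRCm38.p6, plus strand, chr10:34389831-34389980 and chr9:7272364-7272513) are printed 5′ to 3′, with capitals for 3 motifs searched on both strands: TATAAA (the TATA box), ACCACA (a RUNX core) and TGACTCA (an AP-1 site).
Col10a1: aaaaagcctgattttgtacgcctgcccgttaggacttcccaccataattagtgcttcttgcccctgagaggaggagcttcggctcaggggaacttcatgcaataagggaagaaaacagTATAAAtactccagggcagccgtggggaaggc
Mmp13: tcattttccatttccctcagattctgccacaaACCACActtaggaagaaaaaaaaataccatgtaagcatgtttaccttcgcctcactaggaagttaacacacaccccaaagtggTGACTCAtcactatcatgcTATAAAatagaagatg
The *Col10a1* window held the TATA box, 32 bases before the start, and neither of the other letters. The *Mmp13* window held a RUNX core 118, an AP-1 site 35 and a TATA box 16 bases before the start. Of 32851 such windows in the RefSeq table, 7.57% held TATAAA, 8.40% ACCACA and 2.84% TGACTCA, in either orientation.

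*Col10a1* made up between 0.0432% and 6.52% of a cell's UMIs among the 56 untreated cells (median 0.745%) and between 0 and 11.9% among the 103 calcitriol cells (median 0.392%). The cell nearest above the *Col10a1* limit had 0.1020% and the nearest unselected cell below it 0.0867% in the untreated library, against 0.1008% and 0.0987% in the calcitriol library. In the ranges just outside and just inside the limit, 0.05 to 0.1% and 0.1 to 0.15%, there were 7 and 10 untreated cells and 16 and 15 calcitriol cells, so no gap separated the selected cells from the rest. *Ihh* was at 3 UMIs or more in 10 of 56 untreated and 27 of 103 calcitriol cells, and 3 untreated and 7 calcitriol cells entered by *Ihh* alone.

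Most *Ihh* molecules came from few cells rich in *Col10a1*. Cells with *Col10a1* at 1% or more held 186 of 223 *Ihh* UMIs in the untreated and 233 of 331 in the calcitriol library, and a single cell held 66 and 94 of them. A UMI of *Ihh* was read in 39.3% (26.5 to 53.2%, exact 95% interval) of the untreated and 38.8% (29.4 to 48.9%) of the calcitriol cells. As a background for free RNA, cells with 10 or more UMIs of endothelial genes, fewer than 5 UMIs of *Col2a1* and medians of 9101 and 10631 UMIs showed an *Ihh* UMI in 0 of 189 and 0 of 221 cells, which at a floor of 3 counts allows up to 1.59% and 1.36%. In the same cells *Col10a1* was read in 4.76% and 4.52%. In cells with haemoglobin genes at 10% or more of UMIs, with medians of 10566 and 10280 UMIs, *Ihh* was read in 11 of 2394 (0.459%) and 3 of 462 (0.649%) and *Col10a1* in 3.30% and 6.71%.

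**Figure D1:**
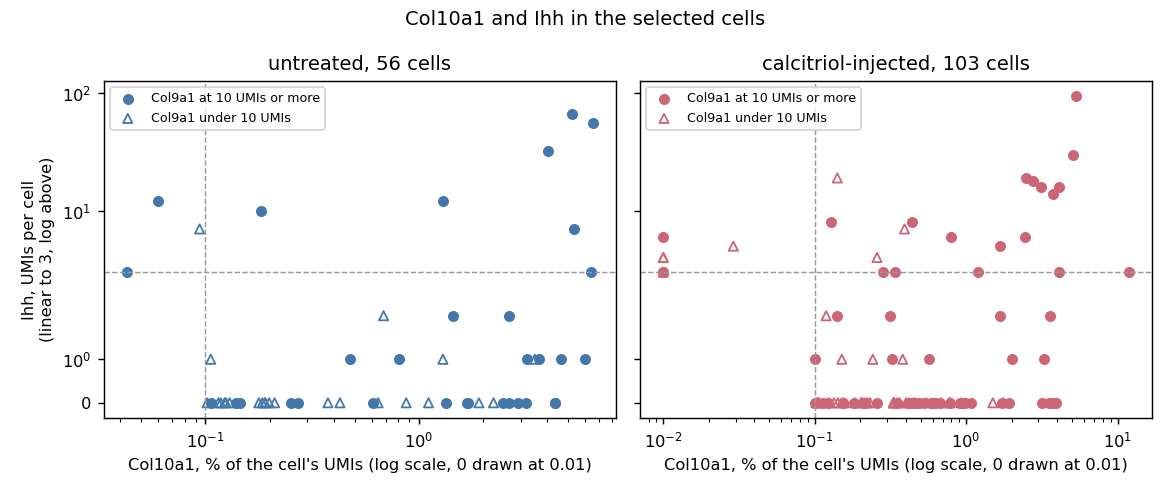
Each point is a selected cell, with the *Col10a1* share of its UMIs on a log axis and its *Ihh* UMIs on an axis that is linear to 3 and logarithmic above, and dashed lines mark the limits of the choice. Cells with 10 or more UMIs of *Col9a1* are filled, and the cells with most *Ihh* (66 UMIs in the untreated, 94 in the calcitriol library) stand at the right, at high *Col10a1*.

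The share of selected cells depended on what they were counted against. They were 0.922% (0.697 to 1.20%) of all deposited untreated cells and 2.26% (1.85 to 2.73%) of the calcitriol cells. Among cells with 200 genes and haemoglobin under 10% the shares were 2.5% (1.89 to 3.24%) and 2.98% (2.44 to 3.60%), and among those with 5 UMIs of *Col2a1* as well they were 11.5% (8.77 to 14.6%) and 9.80% (8.07 to 11.8%), with overlapping intervals. Haemoglobin genes took 41.2% of all UMIs of the untreated and 10.6% of those of the calcitriol library, and the part of red cells in the first difference was not tested.

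To check the label, the selected cells were set against the *Col2a1* cells of the same library that passed every other limit but lay below both the *Col10a1* and the *Ihh* limit (260 untreated and 507 calcitriol cells). Of 8109 genes with 50 or more UMIs over both sets of cells in each library, 152 (1.87%) were at least 2-fold higher and 388 (4.78%) at least 2-fold lower in the selected cells in both libraries. Of 15 measured genes of the hypertrophy list, 4 were higher by this measure and none lower, against those 1.87% and 4.78%. Of 15 transcription factors and regulators of hypertrophy 4 were higher and none lower, and these 4 include *Cdkn1c*, which is no transcription factor. *Pth1r* was at 986 CPM (UMIs of a gene per 1000000 UMIs) in the untreated and 878 CPM with calcitriol, which gave log2 ratios of 1.39 and 1.96 over the other *Col2a1* cells. Of the 10 measured PTHrP and hedgehog genes, 3 were 2-fold higher in both libraries (*Ihh*, which the rule used, *Disp1* and *Pth1r*) and 3 lower, with list medians of -0.57 and -1.18. A gene scarce in the selected cells could pass the 50-UMI filter only through the other cells, which fixes its direction. Likewise, a gene scarce in the other cells could pass only through the selected cells. The higher and lower counts and these medians are therefore a description only. *Mef2c*, a MEF2 factor of hypertrophy, stood 1.64 and 1.90 above them, *Alpl*, the alkaline phosphatase of mineralizing cells, 1.55 and 1.59, and *Cdkn1c*, a cell cycle inhibitor, 1.92 and 1.56. *Foxa2* and *Foxa3*, forkhead factors of hypertrophy, also stood above in both libraries (1.62 and 1.09, 1.33 and 1.42), while *Runx2* (-0.06 and -0.34) and *Runx3* (0.01 and -0.22) lay close to the other cells. These ratios have no replicate check.

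The cell cycle genes were scarce. Of 12 measured genes of this list, 8 were at least 2-fold lower and none higher than in the other *Col2a1* cells in both libraries, but genes such as *Top2a* and *Mki67* passed the 50-UMI filter only through the other cells, which fixed their direction, so the count is a description only. *Top2a* had 5 UMIs in all untreated and 1 UMI in all calcitriol cells, against 334 and 218 in the other cells. Of genes with more UMIs in the selected cells, *Ccnd1* (cyclin D1) had ratios of -2.21 and -1.96, *Pcna*, a replication clamp, of -0.87 and -0.75, and *Mcm6*, a replication helicase subunit, of 0.54 and 0.68. *Mki67*, the proliferation antigen, had 8 and 3 UMIs. Of the resting zone list, 4 of 7 measured genes were 2-fold lower and 1 higher in both libraries, against 4.78% and 1.87% of all genes. This count is also a description only, since a lower gene could pass the filter only through the other cells. *Notum*, a Wnt inhibitor, was among the lower ones, with 8 and 13 UMIs and log2 ratios of -4.17 and -3.86, and it too passed the filter only through the other cells, and *Cd200*, a surface protein, was the higher one (1.30 and 1.22).

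Beyond *Col10a1* and *Ihh*, the genes with the largest ratios over the other *Col2a1* cells in both libraries were *Krtap17-1* (7.15 and 4.20), *Aldh1a3*, a retinoic acid-forming dehydrogenase (5.70 and 3.92), *Slco2b1*, an organic anion transporter (4.59 and 3.59), and *Nrgn*, a calmodulin-binding protein (3.40 and 3.98). *Krtap17-1*, a gene named for keratin-associated proteins of hair, had 462 UMIs in 22 of 56 untreated cells and 275 UMIs in 26 of 103 calcitriol cells. A single untreated cell held 217 of the 353 *Aldh1a3* UMIs. *F13a1*, the A subunit of coagulation factor XIII, was read in 43 of 56 and 85 of 103 cells, at 732 and 778 CPM, with log2 ratios of 2.95 and 3.38. The other genes of this ranking were *C430049B03Rik*, *Gmpr*, *Plaat3*, *Slc38a4*, *Wnk4*, *Alox12*, *Cds1* and *Zfp618*, with the smaller of both ratios between 2.48 and 2.99. At the other end, *Apoe* (-5.48 and -3.83), *Serpina3n* (-5.59 and -3.93), *Ccn5*, *Penk*, *Cxcl10*, *Efemp1* and *Notum* were lowest, with the cell cycle genes *Top2a*, *Cdk1* and *Birc5*.

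*Nt5dc1* (chr10:34288288-34418552, minus strand, GRCm38) spans the whole *Col10a1* gene on the opposite strand and stood 2.60 and 1.79 above the other *Col2a1* cells. In the untreated library *Nt5dc1* was at 16.8 CPM in cells with *Col10a1* at 0.1 to 1%, at 81.3 CPM at 1 to 5% and at 167 CPM in the 5 cells at 5% and more. In the calcitriol library *Nt5dc1* was at 31.7, 30.5 and 39.6 CPM in the same ranges, with overlapping intervals. The counting is not stated to use strand in the sources used here, and whether reads of *Col10a1* were counted for *Nt5dc1* was not tested.

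Markers of leukocytes and vessels were scarce in the selected cells, and those of red cells and osteoblasts were not. The 9 leukocyte markers summed to 6.19 and 7.31 CPM, led by *Cd68*, with *Ptprc* (CD45) at 0 in both libraries, and the 8 endothelial markers to 25.3 and 22.9 CPM, led by *Eng*. The 9 erythroid markers summed to 1951 and 225 CPM, led by *Hbb-bs*, and 1263 of its 2089 untreated UMIs were in 1 cell. *Adipoq* was at 0 in both libraries. The 12 osteoblast markers summed to 7581 CPM in the untreated and 3212 CPM with calcitriol, led by *Col1a1*, and the 6 osteocyte markers to 678 and 560 CPM, with *Fgf23* at 0.

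The selected cells were not of 1 kind. *Col9a1*, a type IX collagen chain of cartilage that the selection did not use, was at 10 or more UMIs in 32 of 56 untreated (57.1%) and 60 of 103 calcitriol cells (58.3%). These cells also held the cartilage matrix genes *Matn3* (1679 and 908 CPM), *Hapln1* (7375 and 5712 CPM) and *Panx3* (236 and 170 CPM), a channel gene of prehypertrophic cells, and 9 of the 10 untreated and 20 of the 27 calcitriol cells with 3 UMIs of *Ihh*. The split by *Col9a1* and *Col1a1* was chosen after the values had been seen and is a description.

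The second kind had *Col9a1* under 10 UMIs and *Col1a1* (type I collagen) at 1% or more of UMIs, and held 12 of 56 untreated and 10 of 103 calcitriol cells. Their markers were mixed, so these cells are called by their collagen genes only. They had 0 UMIs of *Matn3* in the untreated library and 7.79 CPM in the calcitriol library, with *Spp1* at 108798 and 94311 CPM, *Ibsp* at 22606 and 19432 CPM, both also known from the last hypertrophic cells, and *Dmp1*, a matrix protein of osteocytes, at 908 and 2087 CPM. They held *Col2a1* at 19336 and 8240 CPM, *Chad* (chondroadherin) at 18260 and 15071 CPM and *Sox9*, the chondrocyte transcription factor, at 978 and 779 CPM. Their *Col10a1* share was low, with medians of 0.127% and 0.167%, and their median depth was 12080 and 10908 UMIs against 42226 and 42370 in the cells rich in *Col9a1*.

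The third kind, with *Col9a1* under 10 UMIs and *Col1a1* under 1%, held 12 untreated and 33 calcitriol cells. Its median depth was 20379 and 16181 UMIs. Its median *Col10a1* share was 0.777% and 0.331%, against 2.08% and 0.618% in the cells rich in *Col9a1*. It was rich in *Spp1* (67010 and 58023 CPM) and *Mgp* (matrix Gla protein, 32575 and 30943 CPM), and it had little *Col2a1* (5322 and 5981 CPM) and, like the second kind, little *Matn3* (29.6 and 3.63 CPM), so it too is named by its genes only. *Mmp13* was at 7146 and 2205 CPM, but with a UMI in 5 of 12 and 8 of 33 of these cells. Doublet scoring marked 7 of 56 untreated and 4 of 103 calcitriol cells.

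**Figure D2:**
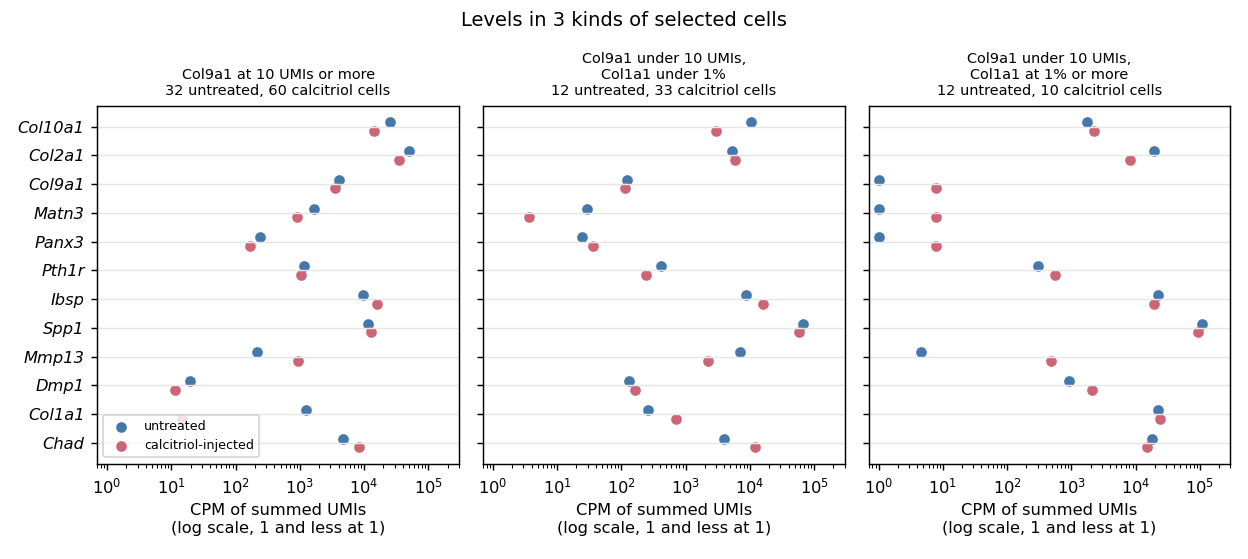
CPM of summed UMIs on a log axis for 12 genes in the 3 kinds of selected cells, with untreated and calcitriol-injected mice in different colours. *Matn3* (1679 and 908 CPM) and *Panx3* (236 and 170 CPM) are highest in the left panel and *Spp1* (108798 and 94311 CPM) in the right, and *Col1a1* stands near 22085 and 23599 CPM on the right, where it was part of the split.

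*Mmp13* marked few cells. Those with 10 or more UMIs were 7 of 56 untreated and 10 of 103 calcitriol cells, and they held 1725 of 1745 and 3567 of 3607 *Mmp13* UMIs. *Spp1* was at 1% or more of UMIs in 6 of these 7 and in 10 of these 10 cells. None of the 7 and 1 of the 10 had 3 UMIs of *Ihh*. Cells with *Spp1* at 1% or more (23 of 56 and 51 of 103) rarely held 10 UMIs of *Matn3* (2 of 23 and 7 of 51), although 24 of 56 and 40 of 103 selected cells did.

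Levels were also followed along the *Col10a1* share of the cells. The 3 untreated cells below 0.1%, the 5 untreated and the 3 calcitriol cells at 5% and more, and the 7 calcitriol cells below 0.1% are too few to carry a trend, so the ranges of 0.1 to 1% (27 and 71 cells) and 1 to 5% (21 and 22 cells) are set side by side. *Ihh* was at 22.9 and 66.3 CPM in these ranges in the untreated library, where 1 cell held 10 of 15 and 1 cell 32 of 53 UMIs, and at 35.2 and 116 CPM in the calcitriol library. In the 5 untreated and 3 calcitriol cells at 5% and more, *Ihh* was at 599 and 1676 CPM, with 66 of 133 and 94 of 127 UMIs in 1 cell. *Matn1* (matrilin 1) was likewise higher at 1 to 5% than at 0.1 to 1% in both libraries, at 504 against 186 CPM and at 437 against 131 CPM. *Mmp13* was lower at 1 to 5% in the calcitriol library, at 129 against 1751 CPM, and at 13.9 against 1150 CPM without the top cell of each range. In the untreated library its order rested on 1 cell, with 971 against 1469 CPM, but 553 against 73.5 CPM without the top cells, and a UMI in 8 of 21 against 5 of 27 cells. *Spp1* was lower at 1 to 5% in both libraries, at 26918 against 42408 CPM and 6756 against 30251 CPM, with the same order without the top cells. The ranges mix the kinds of cells, however. The second kind, rich in *Col1a1*, had *Spp1* at 108798 and 94311 CPM at median *Col10a1* shares of 0.127% and 0.167%. The order of *Spp1* within a kind was not tested, so it cannot be read as a trend along *Col10a1*. The matrix gene *Col2a1* was at 39990 and 43180 CPM in the untreated library and at 26052 and 37165 CPM in the calcitriol library. These values also depend on the mix of kinds. Untreated cells rich in *Col9a1* held *Col2a1* at 50847 CPM and those of the second kind at 19336 CPM.

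**Figure D3:**
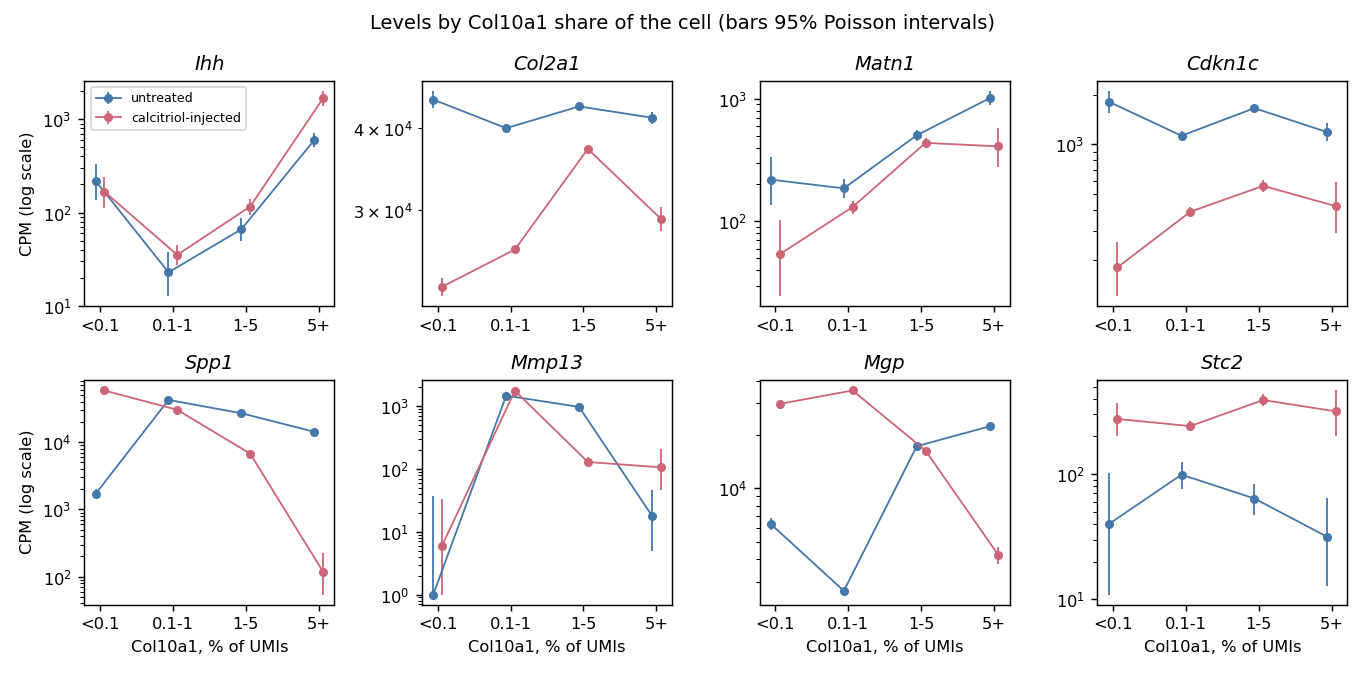
CPM (log axis) of 8 genes by the *Col10a1* share of the cell, in 4 ranges, with bars for the 95% Poisson interval of the summed count. *Cdkn1c* and *Col2a1* are lower and *Stc2* higher with calcitriol in each range, whereas the order of the groups turns for *Mgp* (2663 against 35304 CPM at 0.1 to 1%, 17214 against 16280 CPM at 1 to 5%).

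Which genes differed between calcitriol-injected and untreated mice in these cells was asked across 6420 genes with 50 or more UMIs and a UMI in 10% of the cells of a library. With calcitriol, 191 genes (2.98%) were at least 2-fold higher and 247 (3.85%) at least 2-fold lower. The median log2 ratio of all these genes was -0.14, and centred on it the split was 277 higher against 169 lower. Ratios below are not centred, so a gene with a ratio of -0.14 lies at the median. Counts of list members past 2-fold are to be read against the 2.98% higher and 3.85% lower of all genes.

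**Figure D4:**
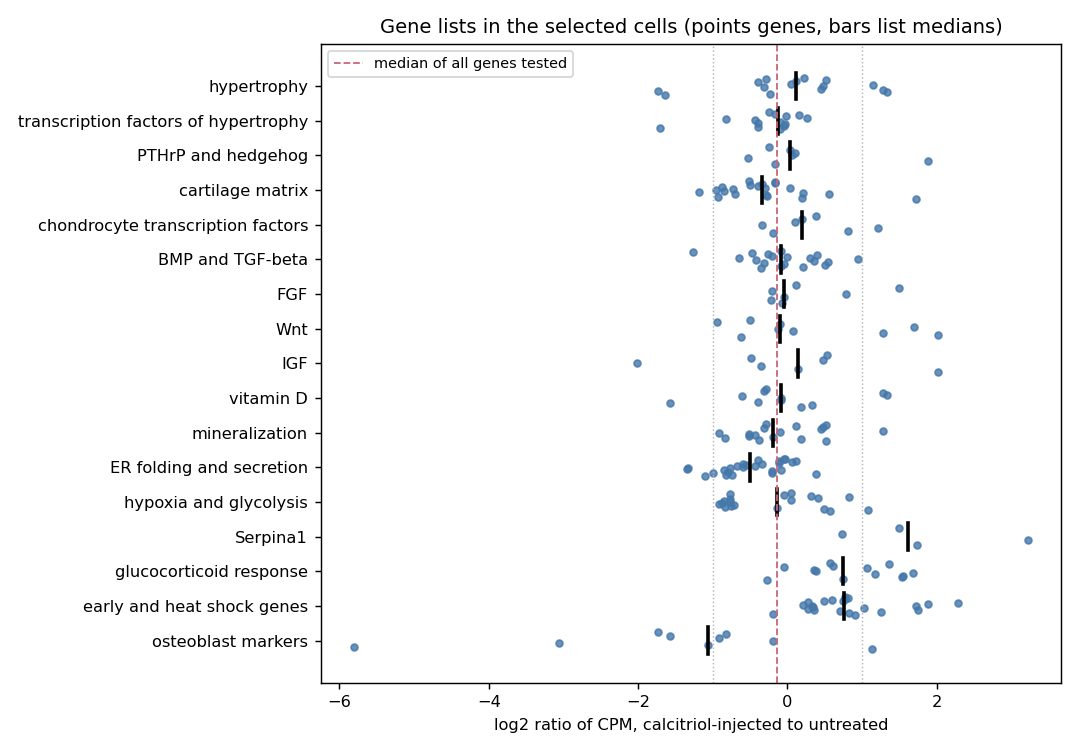
Log2 ratio of calcitriol-injected to untreated for each gene (points) of 17 lists in the selected cells, with list medians as black bars, the median of all genes (-0.14) as a dashed line and 2-fold limits as dotted lines. The Serpina1, glucocorticoid and early response lists lie to the right, and the osteoblast markers and the genes of folding and secretion to the left.

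The genes of hypertrophy had no common direction. Of 15 measured, 3 were at least 2-fold higher (2.98% of all genes) and 2 lower (3.85%), with a median of 0.11. *Alpl* was at 1642 CPM in the untreated and 1777 CPM with calcitriol, a log2 ratio of 0.11 (0.05 to 0.18). *Vegfa*, the vessel growth factor, was at 302 and 313 CPM, with an interval (-0.10 to 0.21) that includes 0. *Mmp13* was at 981 and 1146 CPM, but 1 cell held 918 of the 1745 untreated and 1 cell 1241 of the 3607 calcitriol UMIs, and the log2 ratio went from 0.22 to 0.69 without both cells. Among cells rich in *Col9a1* it was 2.12, with all cells kept. There, single cells held 1241 and 769 of the 2331 calcitriol and 207 of the 295 untreated UMIs. The direction of *Mmp13* turned in the cells poor in both *Col9a1* and *Col1a1* (7146 and 2205 CPM) and at *Col10a1* of 1 to 5% (971 and 129 CPM). *Ibsp* was at 11129 and 15976 CPM (0.52, 0.50 to 0.55) and *Spp1* at 29633 and 24178 CPM (-0.29, -0.31 to -0.28). Both directions turned in subsets, with *Ibsp* at 10604 and 8510 CPM in cells with *Col10a1* at 1 to 5% and *Spp1* at 11576 and 12972 CPM in cells rich in *Col9a1*. *Panx3* was at 183 and 140 CPM (-0.39).

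The 3 genes of this list past 2-fold upward were *Mgp*, *Adamts1* and *Tnfsf11*. *Mgp*, an inhibitor of calcification, was read at 11853 CPM in the untreated and 28712 CPM with calcitriol (1.28, 1.25 to 1.30), and at 1.48 among cells rich in *Col9a1*. The direction varied with the cells. *Mgp* was at 2663 and 35304 CPM in cells with *Col10a1* at 0.1 to 1% and at 17214 and 16280 CPM in those at 1 to 5%. In the few cells below 0.1% it was at 6296 and 29696 CPM, and in those at 5% and more at 22228 and 4223 CPM. In the cells poor in both *Col9a1* and *Col1a1*, *Mgp* was at 32575 and 30943 CPM. *Adamts1*, an aggrecanase, had 89 and 346 UMIs (1.14, 0.80 to 1.49). *Tnfsf11* (RANKL), the signal that forms osteoclasts, was at 19.7 and 49.9 CPM (1.34, 0.81 to 1.91), with 19 of its 35 untreated UMIs in 1 cell, and the ratio was -0.07 with the *Col10a1* limit at 0.5%. *Tnfrsf11b*, its decoy receptor osteoprotegerin, was at 745 and 635 CPM (-0.23). Downward past 2-fold were *Mmp14* (57.4 and 18.4 CPM, -1.64, but 0.14 with cells thinned to 2000 UMIs) and *Col1a1* (3640 and 1098 CPM, -1.73).

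Of 14 measured transcription factors and regulators of hypertrophy, none was 2-fold higher and 1 was lower, with a median of -0.13. That gene was *Cdkn1c* (chr7:143458339-143461050, minus strand, GRCm38), the cell cycle inhibitor p57, at 1411 CPM in the untreated and 430 CPM with calcitriol (-1.71, -1.81 to -1.62). It was read in 45 of 56 and 63 of 103 cells, was lower with calcitriol in each range of *Col10a1*, and had a log2 ratio of -1.75 among cells rich in *Col9a1*. *Cdkn1a* (p21) was at 1176 and 1099 CPM (-0.10). *Runx2* was at 104 and 87.7 CPM and *Runx3* at 73.7 and 66.1 CPM, with intervals of -0.52 to 0.03 and -0.48 to 0.17. *Mef2c* was at 277 and 311 CPM (0.16, 0.01 to 0.32), and *Sp7*, the osterix gene, at 89 and 89 UMIs, which relative to the totals is a log2 ratio of -0.82 (-1.26 to -0.38).

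Of the PTHrP and Indian hedgehog genes, 7 of 15 could be compared, 1 was 2-fold higher and none lower, and the median was 0.04. *Pth1r* differed little, at -0.17 (-0.25 to -0.08). *Ptch1*, the hedgehog receptor and target, had 50 and 91 UMIs and a ratio of 0.04 (-0.47 to 0.57). *Gli1*, a hedgehog target, was at 0 UMIs in the untreated and 2 UMIs in the calcitriol cells, and *Pthlh*, which encodes PTHrP, at 5 and 3 UMIs. *Gas1*, a hedgehog co-receptor, was the gene past 2-fold (10 and 65 UMIs, 33 of them in 1 calcitriol cell).

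The cartilage matrix genes had ratios below 0 in 16 of 21 measured members, but 2-fold lower in 1 of them, *Matn4*, and their median was -0.34 against -0.14 for all genes. *Col2a1*, a gene of this list, was at 41853 CPM in the untreated and 29194 CPM with calcitriol (-0.52, -0.53 to -0.51). The selection required 5 UMIs of it, so its level is in part a description of the choice. *Matn1* was at 434 and 223 CPM (-0.96), but cells with *Col10a1* at 1% or more were 46.4% of the untreated and 24.3% of the calcitriol cells, and within ranges *Matn1* was at 186 and 131 CPM (0.1 to 1%) and at 504 and 437 CPM (1 to 5%). *Matn3* was at 1288 and 713 CPM (-0.85), *Col27a1* at 894 and 487 CPM (-0.88) and *Comp* at 8266 and 4973 CPM (-0.73). *Acan*, the aggrecan gene, was at 4268 and 4391 CPM, a log2 ratio of 0.04. *Chad* was higher, at 6242 and 9230 CPM (0.56, 0.53 to 0.60), and *Cytl1*, a secreted cytokine-like protein of cartilage, was the list's gene past 2-fold upward, at 1383 and 4558 CPM (1.72, 1.66 to 1.78). *Cytl1* was read in 35 of 56 untreated and 81 of 103 calcitriol cells.

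Among genes of folding in the endoplasmic reticulum, secretion and the unfolded protein response, 23 of 26 had ratios below 0, 4 of them 2-fold or more, none was 2-fold higher, and the median was -0.50. Over all genes 3.85% were 2-fold lower and 2.98% higher, and the median was -0.14. *Serpinh1*, the collagen chaperone HSP47, was at 1501 CPM in the untreated and 587 CPM with calcitriol (-1.35, -1.44 to -1.27). It was at 1780 and 629 CPM in cells rich in *Col9a1*, but at 526 and 530 CPM in the second kind and at 656 and 412 CPM in the third. *P4ha2*, a prolyl hydroxylase subunit, was at 253 and 101 CPM (-1.33, -1.54 to -1.12). The other genes past 2-fold were *Creld2* (-1.10) and *Sec13*, a coat protein of secretory vesicles (110 and 55.0 CPM). *Hspa5* (BiP), a chaperone of the endoplasmic reticulum, was at 1424 and 1319 CPM (-0.11). The list median was -0.16 with the mean of the cells' own CPM and -0.13 with cells thinned to 2000 UMIs.

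The hypoxia and glycolysis genes had a median of -0.14, the value of all genes, but -0.40 with cells thinned to 2000 UMIs (all genes 0.02) and -0.55 among cells rich in *Col9a1* (all genes -0.18). Of 19 measured genes of this list none was 2-fold lower and 1, *Ndrg1*, was 2-fold higher. *Ldha* (lactate dehydrogenase) was at 567 and 318 CPM (-0.83, -0.96 to -0.71), *Gapdh* at 800 and 470 CPM (-0.77), *Pgk1* at 181 and 98.5 CPM (-0.87) and *Pkm* (pyruvate kinase) at 523 and 309 CPM (-0.76). *Slc2a1*, the glucose transporter, was at 83.2 and 146 CPM (0.82, 0.55 to 1.09) and *Hk2*, a hexokinase that opens glycolysis, at 193 and 255 CPM (0.41).

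*Bmp6*, a ligand that stood 3.18 and 2.41 above the other *Col2a1* cells, was at 137 CPM in the untreated and 56.6 CPM with calcitriol (-1.27, -1.56 to -0.99). In cells with *Col10a1* at 0.1 to 1% it was at 89.9 and 42.8 CPM, and in those at 1 to 5% at 151 and 97.0 CPM. *Bmp6* was the only 1 of 19 measured BMP and TGF-beta genes past 2-fold, and *Bmp2* was at 534 and 504 CPM (-0.08). *Frzb*, a secreted Wnt antagonist of cartilage, was at 85.5 and 346 CPM (2.02, 1.77 to 2.27), read in 28 of 56 and 76 of 103 cells. *Fzd9*, a Wnt receptor, and *Lef1*, a Wnt transcription factor, had ratios of 1.70 and 1.28 on 16 and 13 untreated UMIs. *Stc2* (stanniocalcin 2), an inhibitor of the protease that frees IGF from its binding proteins, was at 71.4 and 289 CPM (2.02, 1.75 to 2.30), higher with calcitriol in each range of *Col10a1* and at 2.38 among cells rich in *Col9a1*. *Igfbp6* had a log2 ratio of -2.01, but 355 of its 413 untreated UMIs were in 1 cell and the ratio was 0.39 without the top cell of each library. *Fgfr3*, the FGF receptor that limits growth plate proliferation, was at 91.7 and 79.4 CPM, with an interval of -0.50 to 0.09, and *Fgfr1* at 301 and 324 CPM (0.11).

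The vitamin D receptor was read in the selected cells. *Vdr* had 50 UMIs in 26 of 56 untreated and 58 UMIs in 28 of 103 calcitriol cells, which is 28.1 and 18.4 CPM (-0.61, -1.18 to -0.03), and it stood 1.98 and 1.26 above the other *Col2a1* cells. *Cyp24a1*, the calcitriol-degrading enzyme and classical target, had 0 UMIs in the untreated and 1 UMI in the calcitriol cells, and *Trpv6*, *Calb1* and *S100g* were at 0 in both. At these totals a count of 0 allows up to 1.69 CPM in the untreated and 0.953 CPM with calcitriol. Of 20 vitamin D genes 11 could be compared, 2 were 2-fold higher (*Mgp* and *Tnfsf11*) and 1 lower (*Bglap*, 497 and 167 CPM, which the selection had limited), with a median of -0.09. These counts stand beside 2.98% higher and 3.85% lower over all genes. *Enpp1*, which makes pyrophosphate, was at 224 and 179 CPM (-0.32, -0.51 to -0.14).

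Part of the hormone and stress response genes were 2-fold higher with calcitriol. Of 13 measured glucocorticoid response genes 6 were 2-fold higher (2.98% of all genes) and none lower, with a median of 0.75 against -0.14 for all genes and 1.06 for the list in the other *Col2a1* cells. *Fkbp5* was at 30.9 and 79.4 CPM (1.36, 0.93 to 1.81), *Zbtb16* at 15.7 and 32.7 CPM (1.06), *Mt1* (metallothionein 1) at 441 and 1418 CPM (1.68, 1.57 to 1.80) and *Pdk4* at 19.7 and 57.2 CPM (1.54). *Sgk1*, a kinase of the same list, was at 1063 and 1360 CPM (0.36), and the receptor gene *Nr3c1* at 59.6 and 49.6 CPM (-0.27, -0.63 to 0.10). Of 22 immediate early and heat shock genes, which tissue digestion is known to induce, 6 were 2-fold higher (2.98% of all genes) and none lower, with a median of 0.76, and 0.59 in the other *Col2a1* cells. *Fos* was at 1208 and 2066 CPM (0.77), *Zfp36* at 101 and 340 CPM (1.75) and *Hspb1* at 309 and 1016 CPM (1.72). *Hspb1* was at 306 and 1193 CPM in cells rich in *Col9a1*, but at 293 and 366 CPM and at 350 and 378 CPM in the second and the third kind, and its ratio was -2.02 in the 3 and 7 cells chosen by *Ihh* alone. *Hspa1a* and *Hspa1b*, whose sequences are nearly identical so that reads can be split between them, had ratios of 2.28 and 1.89. Injection itself, and anything that differed between the 2 library preparations, cannot be told apart from calcitriol in these genes.

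The *Serpina1* genes encode alpha-1-antitrypsin and are near-identical copies, so their separate counts are uncertain. Of 5, 4 could be compared and 3 were 2-fold higher (2.98% of all genes), with a median of 1.62, and 1.10 in the other *Col2a1* cells. *Serpina1a* was at 93.9 and 266 CPM (95% interval of the log2 ratio 1.26 to 1.75) and *Serpina1c* at 11.2 and 105 CPM (3.22, 2.57 to 3.95). They were read in 15 of 56 and 37 of 103 cells for *Serpina1a* and in 9 of 56 and 24 of 103 cells for *Serpina1c*.

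The genes at the upper end of the ranking entered mostly through the calcitriol library, so their low untreated counts follow from the choice. *C730034F03Rik*, a gene without a given name, had 1 and 57 UMIs (5.01, 2.47 to 10.34). *Il6*, the interleukin 6 gene, had 0 UMIs in the untreated and 61 UMIs in 14 calcitriol cells, which against a floor of 3 counts over the group is a log2 ratio of at least 3.52. *Hp* (haptoglobin) had 7 and 271 UMIs (4.45, 3.39 to 5.78), *Rrad*, a small GTPase, 3 and 115 UMIs (4.44, 2.85 to 6.74, and 0.14 with cells thinned to 2000 UMIs), *C4b* (complement) 5 and 68 UMIs (2.94) and *Chil1*, a chitinase-like protein, 36 and 393 UMIs (2.63, but 1.49 with the mean of the cells' own CPM). *Net1*, *Cbr3* and *Slurp1* completed the ranking with *Serpina1c*. The calcitriol UMIs of *Il6*, *Hp* and *Rrad* were spread, with at most 16, 41 and 15 in a single cell.

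The lower end held genes of bone and fibrous matrix, and those such as *Postn*, *Tnn*, *Aspn* and *Sfrp4* entered only through the untreated library, so their direction follows in part from the choice. *Postn* (periostin) had 220 UMIs in 6 untreated and 7 UMIs in 7 calcitriol cells (-5.80, -7.13 to -4.73), but 156 of the 220 were in 1 cell and the ratio was -1.53 without marked doublets. *Col3a1* (type III collagen) had 425 and 69 UMIs (-3.45), 254 of the untreated ones in 1 cell, and -0.92 without doublets. *Bglap2* had 489 and 104 UMIs (-3.06), 225 of the untreated ones in 1 cell. *Tnn* (tenascin-N) had 64 and 10 UMIs (-3.50), with the opposite direction, 0.30, without cells that held *Col1a1* at 1% or more. *Spon2* (spondin 2) was more evenly spread, with 307 UMIs in 34 of 56 untreated and 63 UMIs in 22 of 103 calcitriol cells (-3.11, -3.52 to -2.71), and between -3.40 and -3.10 without *Col1a1*-rich cells, among cells rich in *Col9a1* and with the *Col10a1* limit at 0.5%. *Aspn*, *Sfrp4*, *Tnc* and *Cd276* also lay at this end. Of 9 measured osteoblast markers 5 were 2-fold lower (3.85% of all genes) and 1, *Omd*, was higher (2.98%), and the list median was -1.06, against -1.05 in the other *Col2a1* cells. The cells with *Col1a1* at 1% or more were 13 of 56 untreated (23.2%, 13 to 36.4%) and 10 of 103 calcitriol cells (9.71%, 4.75 to 17.1%), and the median of the osteoblast list, which holds *Col1a1*, was -0.41 without them.

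The remaining lists are given by their counts, against 2.98% higher and 3.85% lower over all genes. Of the measured chondrocyte transcription factors 1 of 7 was 2-fold higher (median 0.19), and *Sox9* was at 957 and 1249 CPM. Of the FGF genes 1 of 7 was higher (median -0.05), of the Wnt genes 3 of 9 (median -0.10), and of the IGF genes 1 of 7 was higher and 1 lower (median 0.14). Of 17 mineralization genes 1 was higher (median -0.19), of 4 resting zone genes 1 was lower (median -0.01), and none of 3 cell cycle genes (median -0.11) or 4 osteocyte markers (median -0.25) passed 2-fold. Of the superficial and synovial markers 2 of 3 were higher, and their sum of 1445 and 4761 CPM was led by *Cytl1*, which the cartilage list also holds. All 4 measured erythroid genes were 2-fold lower. Markers of fibroblasts summed to 62.4 and 26.1 CPM, of smooth muscle and pericytes to 43.3 and 16.8 CPM, of osteoclasts to 87.7 and 31.8 CPM, of stromal and fat cells to 18.0 and 30.2 CPM and of tendon to 12.4 and 42.3 CPM, and at most 1 gene of each of these lists could be compared. That of smooth muscle, *Tagln*, had 66 and 22 UMIs (-2.41). The part of other cells' RNA in the ratios was not tested.

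The same ratios were computed in the other *Col2a1* cells, so that both can be read side by side. The median of the folding and secretion list was -0.50 in the selected and -0.71 in the other cells, that of the cartilage list -0.34 and -0.64, and that of the hypoxia list -0.14 and -0.50. In the other *Col2a1* cells of the same libraries, *Mgp* had a log2 ratio of 1.27, *Cytl1* of 2.27, *Stc2* of 1.80, *Fkbp5* of 1.63, *Serpinh1* of -1.71, *Cdkn1c* of -1.36, *Col2a1* of -0.75 and *Spon2* of -2.38. *Bmp6* had -0.50 there against -1.27, *Frzb* 1.04 against 2.02, *Hspb1* 0.65 against 1.72 and *Adamts1* 0.20 against 1.14. For *Il6* the other cells gave -0.09 (-0.39 to 0.22), where the selected cells gave at least 3.52. Both sets of cells come from the same libraries, and the difference between their ratios was not tested.

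**Figure D5:**
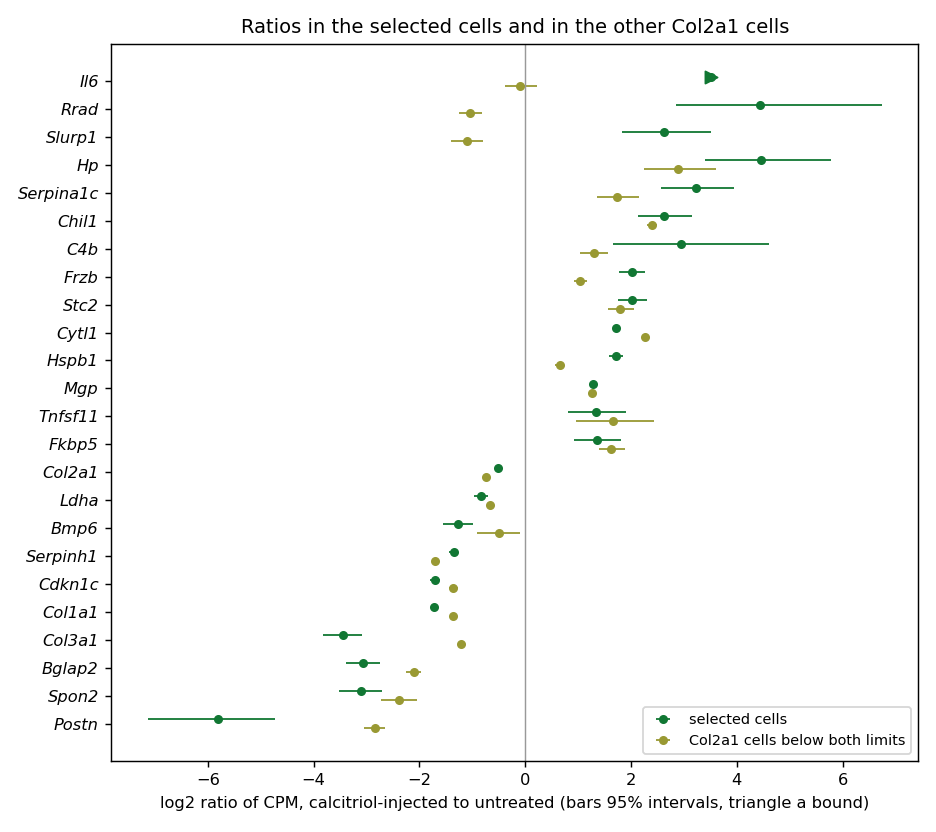
Log2 ratios of calcitriol-injected to untreated for 24 named genes in the selected cells and in the *Col2a1* cells below both limits, with 95% intervals of counting error as bars and a triangle for a bound. *Rrad* and *Slurp1* point in opposite directions in the 2 sets of cells, and the bars of *Mgp* (1.28 and 1.27), *Stc2* (2.02 and 1.80) and *Fkbp5* (1.36 and 1.63) overlap.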

How the data were processed

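Femoral cells were measured by droplet single-cell RNA-seq (10x Genomics 3′ chemistry). The authors deposited, per library, the count matrix filtered by Cell Ranger 4.0.0 against mm10, with UMI counts of 32285 genes and no normalization. Seurat 3.2.2, also named in the submitters' processing notes, was not used here. Both libraries were used whole (70266983 and 60392557 UMIs), and groups were taken from the sample labels. The members of the selection and the gene lists were chosen with earlier results of these data known.

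UMIs were summed over the selected cells of a library and divided by their total (CPM). Ratios have exact conditional binomial intervals, sums Poisson and shares Clopper-Pearson intervals at the 95% level, which cover counting error only. Where a group had 0 UMIs the bound was taken at 3 counts over that group, and no ratio was formed where neither group exceeded 3. Cells, not mice, spread these values, and with 1 library per group no test across mice was possible. Named genes were *Col10a1*, *Ihh*, the genes of 29 lists, the 10 largest and 10 smallest ratios between groups (mitochondrial and haemoglobin genes left out), and the 15 largest and 10 smallest against the other *Col2a1* cells, ranked by the ratio nearer 0 of both libraries; *Nt5dc1* was added after its values had been seen. A gene of these rankings is not reported here. Doublets were scored per library with Scrublet in scanpy at an expected 0.8% per 1000 cells and kept in the values unless stated. As alternatives, cells were thinned to 2000 UMIs, CPM values were averaged over cells, and limits and gene filters were moved, and, added after seeing the data, the subsets by *Col1a1* and *Col9a1*, centring and leaving out the top cell of a gene, also within ranges of *Col10a1*. Ratios and intervals were tested on simulated data. Coordinates were from GENCODE by Ensembl identifier and promoters from RefSeq. The software was Python 3.11.15, numpy, scipy, pandas and scanpy.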

Additional observations from a re-analysis of the deposited data

Results flagged for a closer look

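*Rrad*, a small GTPase, had opposite directions in the selected cells and in the other *Col2a1* cells of the same libraries, with log2 ratios of calcitriol-injected to untreated of 4.44 and -1.04. *Slurp1*, a secreted Ly6 family protein, had ratios of 2.62 and -1.10. The difference between the 2 sets of cells was not tested. The selected cells held 3 and 115 UMIs of *Rrad* and 14 and 152 UMIs of *Slurp1*, and for *Slurp1* 44 of the 152 were in 1 cell. With cells thinned to 2000 UMIs the ratio in the selected cells was 0.14 for *Rrad* and -0.13 for *Slurp1*.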

How the results depend on the processing

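No paired analysis was possible because each group is 1 library. Of 821 alternative values of the 56 named genes past 2-fold, 802 kept their sign and 755 also stayed past 2-fold. The cause of the changes below was not tested, except where fewer cells or genes entered. Thinned to 2000 UMIs, where fewer genes pass, 39 genes were 2-fold higher and 25 lower with calcitriol, 25 were higher and 55 lower than in other *Col2a1* cells, the hypertrophy median was 0.04, *Rrad* was at 0.14, and *Slurp1* (-0.13), *Tnfsf11* (-0.33) and *Mmp14* (0.14) turned. The mean of the cells' own CPM gave 310 genes higher and 312 lower. Without doublets 222 genes were higher and 198 lower, the hypertrophy median was 0.03 and *Igfbp6* was at 0.51. With *Col10a1* alone as the rule the cartilage median was -0.31. With *Ihh* alone the shares were 0.0494% and 0.153%, 89 genes were higher and 151 lower, the medians were 0.37 (hypertrophy) and -1.20 (cartilage), and *Col3a1* (0.01), *Aspn* (1.27), *Tnfsf11* (-1.98), *Igfbp6* (3.18), *Pdk4* (-1.47), *Hspb1* (-2.02) and *Bglap* (0.11) turned. With *Col10a1* at 0.5% the shares were 0.576% and 1.23%, the hypertrophy median was -0.07, *Tnfsf11* was at -0.07 and *Igfbp6* at 1.97. With 20 UMIs of *Col2a1* the hypertrophy median was -0.05, and with *Bglap* under 0.1% the cartilage median was -0.29 and *Igfbp6* 1.15. Genes with 20 UMIs gave 400 higher and 506 lower, and no filter 1086 and 1143. Without cells of 1% *Col1a1* the medians were 0.29 and -0.48, and *Tnn* (0.30), *Col1a1* (0.43, its own limit) and *Col1a2* (0.19) turned. Among *Col9a1*-rich cells the shares were 0.527% and 1.32%, the cartilage median -0.43 and *Igfbp6* 1.02. Centred, the medians were 0.26 and -0.20. Without the top cell *Igfbp6* was at 0.39.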
